A study of Sus scrofa with 12 samples.

Results

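The genes of the extracellular matrix, the laminins and the integrins were followed in skeletal muscle of newborn pigs. Members were taken by gene symbol: symbols that begin with COL and a digit, with LAMA, LAMB, LAMC, ITGA, ITGB, MMP, TIMP, FBN or THBS, and a set of named genes such as FN1, SPARC, DCN and LOX. This gave 57 genes of the 6765 that carried a single symbol, each read by its probe set with the highest mean log2 signal. Of the 57 genes, 40 lay above the limit on dim probe sets, a mean signal of 90.3, and were tested, and 17 lay below it. RNA from the muscle of pigs of 4 ages was measured on Affymetrix arrays, where groups of short probes, called probe sets, each report 1 transcript by their brightness. The ages were day 0 (the first 24 hours of life), day 7, day 14 and day 21, with 3 arrays from separate biological replicates at each age. The 12 samples shared frozen storage in liquid nitrogen, Trizol extraction and labelling with biotin. The labels give no breed, sex, muscle or litter.

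Skeletal muscle fibres lie in a sheath of basement membrane, a sheet of laminin and of network-forming collagen to which the fibre binds through integrins and the dystrophin complex. Outside this sheet, fibroblasts lay down fibrillar collagens, which are trimmed and crosslinked by enzymes, coated with small proteoglycans, and degraded by matrix metalloproteinases under the control of their tissue inhibitors. Glycoproteins such as thrombospondins, periostin and SPARC act between the cells and this matrix.

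The arrays carried the RNA of skeletal muscle: the signal of CKM, the muscle creatine kinase, lay between 36117 and 60467 on all 12 arrays. All arrays had the same trimmed mean signal, 500.1, and medians between 146 and 173. For the poly-A RNAs added before labelling, the log2 signal towards the 3' end minus that towards the 5' end averaged 0.30 ± 0.12 on the 9 later arrays and 0.84 ± 0.56 on the 3 day 0 arrays (SD; exact two-sided permutation p = 0.00455, the smallest these samples allow). It was highest in day 0 replicate 2, at 1.49. The hybridization controls, added in fixed amount, averaged 12.55 ± 0.13 on the later arrays and 12.20 ± 0.09 on the day 0 arrays in log2 signal (SD, exact two-sided permutation p = 0.00455). Both control measures set all day 0 arrays apart from all later ones. In comparisons with day 0, age and these differences between arrays therefore cannot be told apart, also where a gene is said to rise or fall. Changes below are differences of mean log2 signals, the later age minus the earlier, ± SE with 3 arrays per age. The adjusted p is that of limma's test after the Benjamini-Hochberg procedure, taken across the 14399 probe sets above the limit, and a gene passed at 0.05. Signals are given for replicates 1, 2 and 3 in that order. In whole tissue, fewer cells of a type and less RNA per cell cannot be told apart.

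Few matrix genes passed a test of change with age. For mean signals over 500, the median SD between arrays of the same age was 0.45 for matrix genes and 0.26 for all. A wider spread makes a change of a given size harder to call. The F test for any difference among the 4 ages was passed by 1 of the 40 tested genes, COL15A1, a share of 2.5%, against 8.88% of all tested probe sets. Between day 7 and day 0, 2 of 40 (5%) passed, against 9.4% of all probe sets: COL15A1 rose (2.5% of members against 5.76% of all) and COL6A2 fell (2.5% against 3.64%). Between day 21 and day 0, 3 of 40 (7.5%) passed, against 11.5% of all: COL15A1 rose (2.5% against 6.61%), and TIMP1 and ITGB3 fell (5% against 4.9%). These shares lay near or under those of all probe sets. The count for day 21 against day 0 ran from 1 to 7 when 1 array was left out. With the arrays scaled on the hybridization controls, 8 of 40 (20%) passed at day 21, 1 higher and 7 lower, against 20% of all probe sets. Both comparisons use the same day 0 arrays.

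The medians of the 40 genes also moved little. For day 7 against day 0 the median change was 0.05, with 22 genes higher and 18 lower, beside a median of 0.00 over all probe sets. For day 21 against day 0 the median was -0.13, with 19 higher and 21 lower, beside 0.02 over all. Changes of at least 1 log2 unit at day 21, passed or not, were found for 8 of the 40 genes, a larger share than the 9.72% of all probe sets. All but COL15A1 were lower at day 21. The median SD between arrays of the same age was 0.47 for the members and 0.33 for all tested probe sets. A wider spread also widens differences of means, and its part in this share was not tested. The genes whose 3 arrays at day 7 all lay above those at day 0 were COL15A1 and FBN1 (5% of members against 14.9% of all), and those whose arrays all lay below were COL5A3, COL6A2, ITGB3 and THBS3 (10% against 13.7%). At day 21 the arrays lay above those of day 0 for COL15A1 (2.5% against 15.3%) and below for ITGB3 and TIMP1 (5% against 13.7%). The genes COL5A3, FBN1 and THBS3 are named here after their values were seen.

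**Figure D1:**
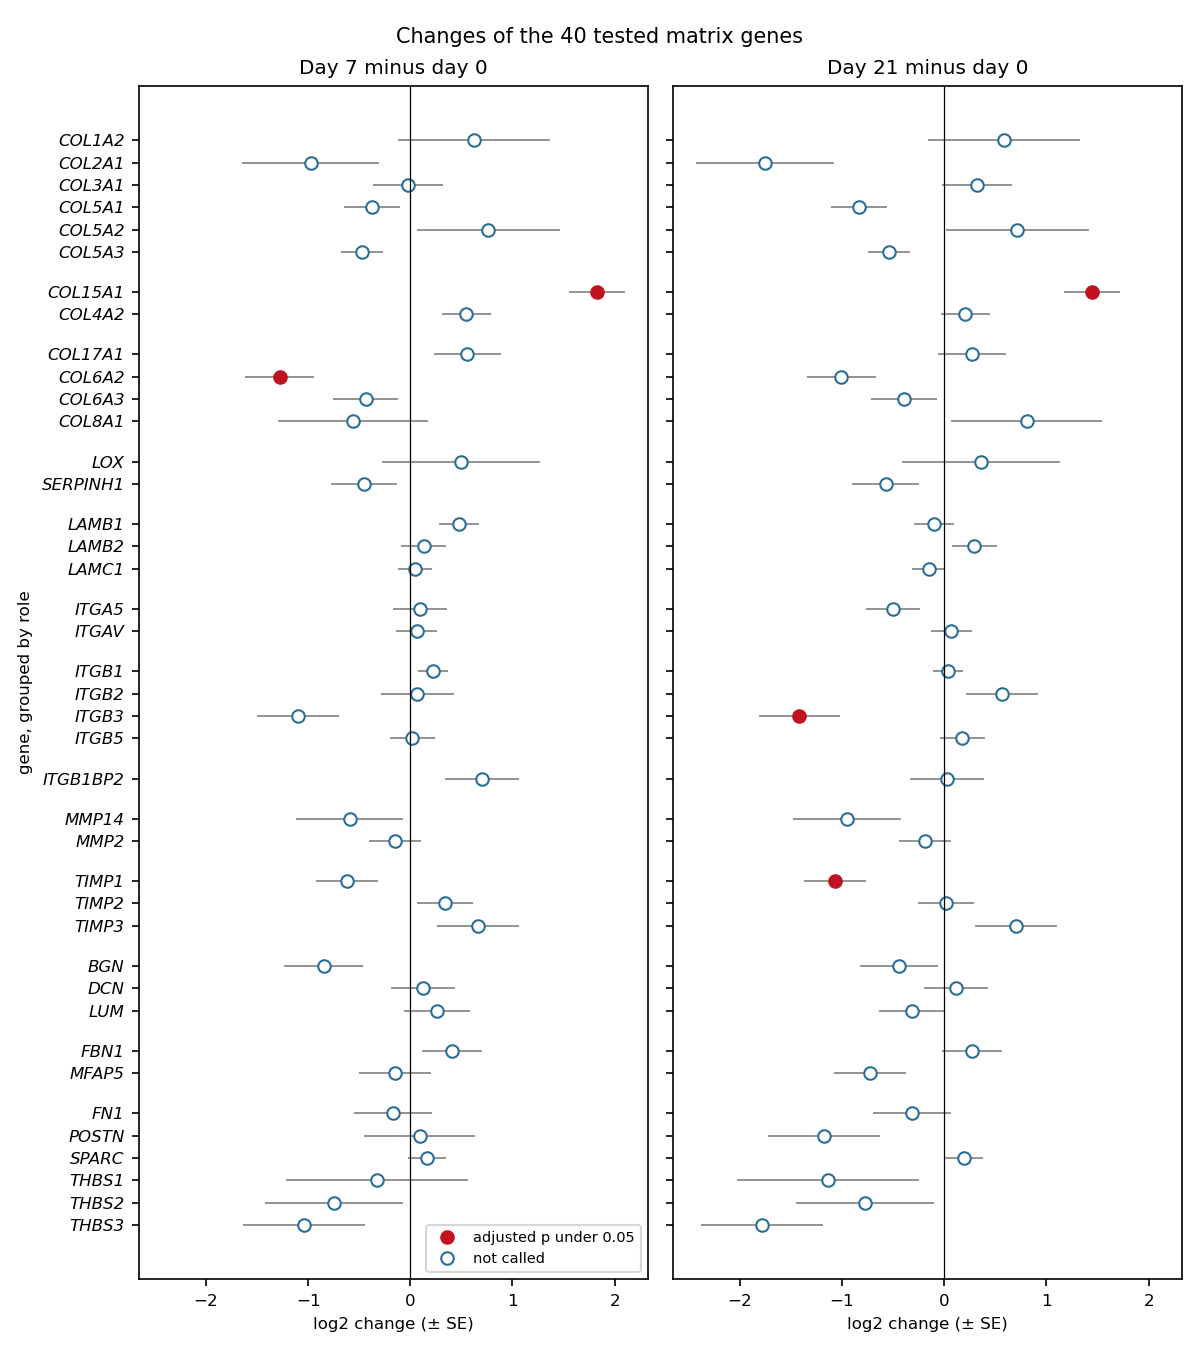
Log2 change of each of the 40 tested matrix genes, with bars of 1 SE, for day 7 minus day 0 (left) and day 21 minus day 0 (right), on a common horizontal axis and grouped by role. Filled red points passed the threshold: COL15A1 above 0, COL6A2 below 0 at day 7, and TIMP1 and ITGB3 below 0 at day 21.

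Collagens of the basement membrane held the 1 gene that rose. COL15A1 encodes collagen XV, which sits at the outer face of the basement membrane around muscle fibres and capillaries. Its signals were 1526, 1937 and 3889 at day 0, 9221, 7125 and 7795 at day 7, 5548, 6017 and 4520 at day 14, and 7244, 5239 and 6110 at day 21. All 3 arrays at day 7 lay above all 3 at day 0, as did those of days 14 and 21, although day 0 replicate 3 stood well above the other 2 newborn samples. The gene was 3.55-fold higher at day 7 than at day 0, a change of 1.83 ± 0.27 (adjusted p = 0.00233). At day 21 it was 2.72-fold higher than at day 0, 1.44 ± 0.27 (adjusted p = 0.00610), and its F test gave an adjusted p of 0.00581. Both calls against day 0 held under all 17 alternatives, with changes from 1.52 to 2.22 at day 7 and from 1.06 to 1.84 at day 21. The F call was lost with the poly-A difference as a covariate, at an adjusted p of 0.109.

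COL4A2, an alpha chain of collagen IV, the network collagen of basement membranes, had signals of 4278, 6706 and 3531 at day 0, 5566, 6018 and 9476 at day 7, 5701, 5839 and 6378 at day 14, and 5105, 4826 and 6334 at day 21. The ages overlapped, and day 7 replicate 3 was the highest array. The change was 0.55 ± 0.24 (adjusted p = 0.169) for day 7 against day 0 and 0.21 ± 0.24 (adjusted p = 0.619) for day 21 against day 0. COL4A2 is named here after its values were seen. COL4A1, its partner chain, has no symbol in the table that names the probes and was not analysed here.

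**Figure D2:**
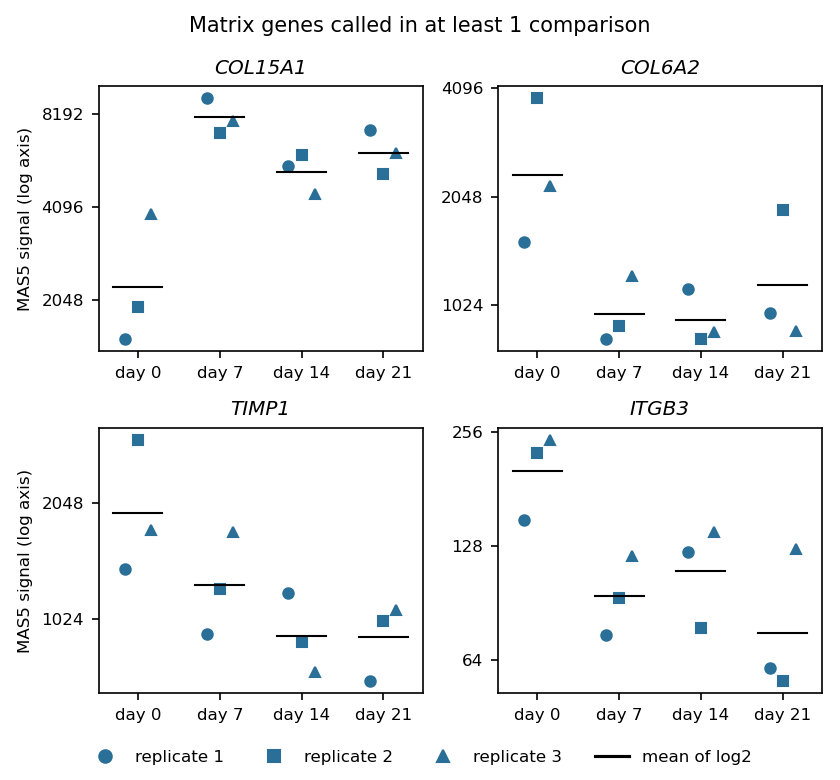
Signal of the 4 matrix genes that passed in at least 1 comparison, on a log axis, in each of the 3 arrays of each age, with a bar at the mean of the log2 signals. COL15A1 lies between 1526 and 3889 at day 0 and between 4520 and 9221 later, while COL6A2 and TIMP1 have their highest value in day 0 replicate 2.

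Collagen VI forms beaded filaments next to the basement membrane, and its loss causes muscle disease in humans. COL6A2, its alpha 2 chain, had signals of 1537, 3846 and 2189 at day 0, 823, 899 and 1232 at day 7, 1139, 826 and 863 at day 14, and 972, 1879 and 868 at day 21. Each day 7 array lay below each day 0 array, and the highest of the 12 values was that of day 0 replicate 2, the array with the largest poly-A difference. COL6A2 was at 0.413 times its day 0 level at day 7, a change of -1.28 ± 0.34 (adjusted p = 0.0342), and at day 21 the change was -1.01 ± 0.34 (adjusted p = 0.0693). Without day 0 replicate 2 the day 7 change was -0.92 (adjusted p = 0.118), and with the poly-A difference as a covariate it was -0.68 (adjusted p = 0.383). The call was also lost without any 1 of the 3 day 7 arrays (adjusted p between 0.0533 and 0.114), with no variance trend (0.0542) and with COMP, a gene described further on, as a covariate (0.0582).

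COL6A3, the alpha 3 chain of the same collagen, did not pass in any comparison. Its signals were 5127, 9705 and 7319 at day 0, 5223, 4144 and 6770 at day 7, 8785, 5228 and 5662 at day 14, and 5017, 8753 and 3640 at day 21. The ages overlapped, and the change at day 21 was -0.40 ± 0.32 (adjusted p = 0.463). Day 0 replicate 2 again held the highest value. The other tested genes of this group were COL8A1, with signals from 14.5 to 234, and COL17A1, from 78.6 to 294, neither of which passed in any comparison. The other members here, COL7A1 and COL10A1, stayed below the limit on all 12 arrays, at most at 26.4 and 80.4.

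Fibrillar collagens, the rope-forming collagens of the interstitium, showed no call among 6 tested genes, with a median change of -0.19 at day 7 and -0.11 at day 21. COL1A2, a chain of collagen I, had signals of 1303, 657 and 3653 at day 0, 1460, 1441 and 5443 at day 7, 5364, 2206 and 2291 at day 14, and 2468, 5607 and 768 at day 21. The highest array of each age exceeded the lowest by more than 2-fold, and every age overlapped every other. Its change at day 21 was 0.59 ± 0.74 (adjusted p = 0.655). COL1A1, which encodes the other chain, has no symbol in the table that names the probes. A dimmer probe set of COL1A2, with a mean signal of 93.6, gave 2.21 ± 1.25 (adjusted p = 0.274).

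Collagen III, which runs with collagen I in the thin sheaths around fibres, is the product of COL3A1. COL3A1 signals were 794, 823 and 646 at day 0, 647, 912 and 687 at day 7, 1298, 390 and 705 at day 14, and 1175, 947 and 735 at day 21. Day 14 held both the highest and the lowest array, and the change at day 21 was 0.32 ± 0.34 (adjusted p = 0.591). COL5A1, a chain of collagen V, which sets the width of collagen I fibrils, had signals of 2132, 3159 and 3005 at day 0, 2231, 1931 and 2174 at day 7, 2715, 1740 and 1465 at day 14, and 1208, 2323 and 1282 at day 21. All day 21 arrays lay below replicates 2 and 3 of day 0, and day 21 replicate 2 stood above the other 2 of its age.

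The change of COL5A1 at day 21 was -0.83 ± 0.27 (adjusted p = 0.0656), and -0.37 ± 0.27 (adjusted p = 0.430) at day 7. It passed without day 0 replicate 1 (adjusted p = 0.0492), without day 21 replicate 2 (-1.13, 0.0181), and when the arrays were scaled on the hybridization controls (-1.21, 0.0142). Another 3 probe sets of COL5A1 were tested, and their day 21 changes ran from -0.67 to 0.48, none passing. Of the remaining fibrillar collagens, chosen after their values were seen, COL2A1 changed by -1.75 ± 0.67 (adjusted p = 0.108) at day 21 and COL5A3 by -0.54 ± 0.21 (adjusted p = 0.108). COL2A1 is best known from cartilage, and its signals lay between 37.3 and 325. COL11A1, another cartilage collagen, was below the limit by its mean, with 4 arrays above it.

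Enzymes that modify collagen were tested for 2 members. LOX, the lysyl oxidase that starts collagen and elastin crosslinks, had signals of 1556, 542 and 2039 at day 0, 1249, 1254 and 3092 at day 7, 4702, 1525 and 1730 at day 14, and 1519, 5622 and 426 at day 21. At day 21 replicate 2 was the highest of all arrays and replicate 3 the lowest of all. The change at day 21 was 0.36 ± 0.78 (adjusted p = 0.808). SERPINH1, the collagen chaperone of the endoplasmic reticulum, had signals from 1127 to 3725 and changed by -0.57 ± 0.32 (adjusted p = 0.272). P4HA1, a prolyl hydroxylase subunit that the rule names, has no symbol in the table that names the probes.

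No laminin gene passed. Their SDs between arrays of the same age were 0.19 to 0.29 log2 units. For mean signals over 500, the median was 0.45 for matrix genes and 0.26 for all probe sets. The laminin spread was thus narrow for matrix genes but near that of bright probe sets in general. LAMC1, the gamma 1 chain shared by most laminins, had signals of 6049, 9150 and 6150 at day 0, 7219, 7140 and 7252 at day 7, 6232, 6296 and 7767 at day 14, and 5992, 6445 and 6412 at day 21. Its 3 values at day 7 lay within a narrow band, and day 0 replicate 2 was the highest of all arrays. The change was 0.04 ± 0.16 (adjusted p = 0.899) at day 7 and -0.15 ± 0.16 (adjusted p = 0.588) at day 21. LAMB1, the beta 1 chain, had signals of 2403, 4043 and 2338 at day 0, 3920, 3947 and 3928 at day 7, 3410, 2977 and 2754 at day 14, and 2375, 2798 and 2778 at day 21. All 3 day 7 arrays lay above replicates 1 and 3 of day 0 but below its replicate 2. The change of LAMB1 was 0.47 ± 0.20 (adjusted p = 0.149) at day 7 and -0.10 ± 0.20 (adjusted p = 0.785) at day 21.

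Other probe sets of these laminin genes did not all give the same answer. A second LAMC1 probe set, with a mean signal of 1004, passed at day 7 with 1.12 ± 0.21 (adjusted p = 0.0079), while the remaining 2 gave 0.24 ± 0.21 (adjusted p = 0.505) and 0.27 ± 0.19 (adjusted p = 0.411). A second LAMB1 probe set, with a mean signal of 829.9, passed at day 7 with 0.52 ± 0.15 (adjusted p = 0.0452). Over all members, 17 other probe sets of 12 genes were tested, and those 2 were the only ones to pass at day 7, with 0 passing at day 21. Of the 17, 14 at day 7 and 13 at day 21 had the sign of the probe set that stood for the gene. LAMB2, the beta 2 chain found where the nerve meets the fibre, changed by 0.29 ± 0.22 (adjusted p = 0.424) at day 21. LAMA2, the alpha chain of adult muscle laminin, has no symbol in the table that names the probes.

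Integrins are pairs of an alpha and a beta subunit. ITGB1, the beta subunit of the laminin-binding integrins of muscle, was the steadiest member, with an SD of 0.16 log2 units between arrays of the same age. ITGB1 signals were 7041, 5614 and 5237 at day 0, 6588, 6771 and 7337 at day 7, 6604, 5759 and 6365 at day 14, and 6655, 6316 and 5285 at day 21. The ages overlapped, and the change at day 21 was 0.03 ± 0.15 (adjusted p = 0.911). Its sign turned when the arrays were quantile normalized (-0.04) or scaled on the hybridization controls (-0.35).

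ITGB3, which pairs with the alpha V subunit and, on platelets, with the product of ITGA2B, fell. Its signals were 150, 225 and 244 at day 0, 74.7, 93.7 and 120 at day 7, 123, 77.9 and 139 at day 14, and 61.0, 56.3 and 126 at day 21. All day 7 and all day 21 arrays lay below all day 0 arrays, and 3 of those 6 values lay below the limit on dim probe sets, 90.3. ITGB3 was at 0.374 times its day 0 level at day 21, a change of -1.42 ± 0.40 (adjusted p = 0.0361), and at day 7 the change was -1.10 ± 0.40 (adjusted p = 0.105). The day 21 call was lost without day 0 replicate 2 or 3 or without day 21 replicate 1 or 2 (adjusted p between 0.0879 and 0.116), with no filter (0.0671), with array weights (0.0641) and with the poly-A covariate (0.143).

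No other integrin gene passed. ITGAV, the alpha V subunit, had signals from 705 to 1099, and ITGA5, the alpha subunit of the fibronectin receptor, from 238 to 694. ITGB5, another partner of alpha V, lay between 415 and 735, and ITGB2, the beta subunit of white blood cells, between 82.8 and 241. The rule also took in ITGB1BP2, melusin, a muscle protein that binds the tail of the beta 1 integrin, which lay between 1451 and 4674 and changed by 0.71 ± 0.36 (adjusted p = 0.245) at day 7. Of the 7 alpha genes, 5 were below the limit, namely ITGA2, ITGA2B, ITGA6, ITGA8 and ITGAM, as was ITGB7. ITGA2B still exceeded the limit on 4 arrays, with signals of 131, 167 and 153 at day 0, 88.1, 63.5 and 36.7 at day 7, 68.3, 42.8 and 30.2 at day 14, and 88.5, 58.2 and 166 at day 21, and ITGB7 did so on 3. All 3 day 0 arrays of ITGA2B and replicate 3 of day 21 were those above it, and the gene, given in full after its values were seen, was not tested. ITGA7, the alpha subunit typical of muscle fibres, has no symbol in the table that names the probes.

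Among the enzymes that break down matrix, 2 of 8 metalloproteinase genes were tested. MMP2, gelatinase A, had signals of 2527, 2711 and 3127 at day 0, 2498, 2149 and 2949 at day 7, 3767, 2209 and 2135 at day 14, and 2290, 3442 and 1840 at day 21. The ages overlapped, with day 14 replicate 1 highest and day 21 replicate 3 lowest, and the change at day 21 was -0.19 ± 0.25 (adjusted p = 0.679). MMP14, the membrane enzyme that activates MMP2, had signals from 54.0 to 219 and changed by -0.95 ± 0.53 (adjusted p = 0.262). The collagenases MMP1 and MMP13, the gelatinase MMP9, and MMP3, MMP7 and MMP20 were below the limit by their means, and MMP9 and MMP13 exceeded it on 1 array each.

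TIMP1, a secreted inhibitor of metalloproteinases, fell. Its signals were 1383, 2977 and 1749 at day 0, 940, 1229 and 1719 at day 7, 1198, 895 and 749 at day 14, and 709, 1013 and 1085 at day 21. Every day 21 array lay below every day 0 array, while at day 7 replicate 3 reached into the day 0 range. TIMP1 was at 0.476 times its day 0 level at day 21, a change of -1.07 ± 0.30 (adjusted p = 0.0364), and at day 7 the change was -0.62 ± 0.30 (adjusted p = 0.222). As with COL6A2, day 0 replicate 2 was the highest array: without it the day 21 change was -0.76 (adjusted p = 0.128), and the poly-A covariate gave -0.57 (adjusted p = 0.228). The call was also lost with no variance trend (adjusted p = 0.0585) and without any 1 of the 3 day 21 arrays (adjusted p between 0.0604 and 0.137). TIMP2 changed by 0.02 ± 0.27 (adjusted p = 0.972) and TIMP3, the inhibitor that binds to the matrix, by 0.70 ± 0.40 (adjusted p = 0.279) at day 21, and TIMP4 was below the limit.

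Small leucine-rich proteoglycans coat collagen fibrils, and none of the 3 tested changed past the threshold. DCN, decorin, had signals of 10747, 12149 and 21506 at day 0, 14794, 13639 and 17998 at day 7, 21990, 14059 and 14462 at day 14, and 14712, 24623 and 9859 at day 21. LUM, lumican, had signals of 2489, 5240 and 5145 at day 0, 5163, 4338 and 5181 at day 7, 4091, 4537 and 2590 at day 14, and 3065, 4927 and 2286 at day 21. BGN, biglycan, had signals of 1000, 2010 and 2294 at day 0, 754, 1034 and 1014 at day 7, 1461, 743 and 847 at day 14, and 1305, 1980 and 715 at day 21.

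In each of these genes the ages overlapped. For day 21 against day 0 the change was 0.12 ± 0.32 (adjusted p = 0.850) for DCN and -0.32 ± 0.32 (adjusted p = 0.562) for LUM. BGN changed by -0.85 ± 0.38 (adjusted p = 0.187) at day 7 and -0.44 ± 0.38 (adjusted p = 0.497) at day 21. The elastic fibre proteins FBN1, the fibrillin of microfibrils, and MFAP5, a protein bound to them, had signals from 2208 to 6336 and from 2063 to 6478. They changed by 0.27 ± 0.30 (adjusted p = 0.600) and -0.72 ± 0.35 (adjusted p = 0.200) at day 21. ELN, elastin itself, has no symbol in the table that names the probes.

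The glycoproteins that link cells and matrix had no call among 6 tested genes, with a median change of -0.25 at day 7 and -0.95 at day 21. FN1, fibronectin, had signals of 4142, 7203 and 9276 at day 0, 5309, 5111 and 7213 at day 7, 8421, 5311 and 5294 at day 14, and 4834, 9909 and 2979 at day 21. At day 21 replicate 2 was the highest of all arrays and replicate 3 the lowest of all, and the change at day 21 was -0.32 ± 0.38 (adjusted p = 0.635). SPARC, a collagen-binding protein of growing tissue, had signals of 23728, 27057 and 35383 at day 0, 30522, 29089 and 36029 at day 7, 41296, 31443 and 31163 at day 14, and 29463, 40742 and 28193 at day 21. It was steady, with an SD of 0.25 between arrays of the same age and a day 21 change of 0.19 ± 0.18 (adjusted p = 0.540). The sign for SPARC turned when the arrays were quantile normalized (-0.02) or scaled on the hybridization controls (-0.19).

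POSTN, periostin, a matrix protein of growing and healing connective tissue, had signals of 1693, 2082 and 5479 at day 0, 2276, 1753 and 5887 at day 7, 2618, 1358 and 1829 at day 14, and 976, 2475 and 692 at day 21. Replicate 3 stood above the others at days 0 and 7, and replicate 2 at day 21. The change of POSTN at day 21 was -1.18 ± 0.54 (adjusted p = 0.179). THBS1, thrombospondin 1, which binds and activates latent TGF-beta, had signals of 3256, 499 and 3128 at day 0, 667, 1087 and 3572 at day 7, 1689, 603 and 2057 at day 14, and 685, 2696 and 260 at day 21. At day 21 replicate 3 was the lowest of all arrays, and the change at day 21 was -1.13 ± 0.89 (adjusted p = 0.445). Of the others, THBS2 changed by -0.77 ± 0.67 (adjusted p = 0.497) and THBS3 by -1.78 ± 0.60 (adjusted p = 0.0703) at day 21. TNC, tenascin C, had a mean signal of 61.7 and was not tested, yet its arrays ran from 4.6 to 498 and 6 lay above the limit. THBS2, THBS3 and TNC are named here after their values were seen.

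After day 7 no matrix gene changed past the threshold. The count was 0 of 40 for day 14 against day 7 (0.00694% of all probe sets passed), 0 of 40 for day 21 against day 14 (0% of all) and 0 of 40 for day 21 against day 7 (0.00694% of all). At an unadjusted limma p under 0.05, 0, 1 and 3 of the 40 genes lay in these 3 comparisons, against 5.95%, 3.03% and 6.66% of all probe sets. The gene for day 21 against day 14 was COL5A3, and those for day 21 against day 7 were ITGA5, LAMB1 and POSTN, all lower at day 21. In the third week 9 genes were higher and 31 lower at day 21 than at day 14, with a median change of -0.17, beside a median of 0.01 over all probe sets, of which 51.3% were higher. Each of these comparisons shares arrays with the next. Many of the 40 genes were highest in the same arrays, as given further on, so they do not count as independent. The split of 9 against 31 carries no test.

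Arrays of the same age lay farther apart in many matrix genes than in most probe sets, which is given as a description with no test. The SD of the log2 signal between arrays of 1 age, pooled over ages, had a median of 0.47 over the 40 genes, against 0.33 over all tested probe sets. Dim probe sets vary more, so the bright ones were also set side by side: among probe sets with a mean signal over 500, the median was 0.45 for 30 matrix genes and 0.26 for all 6127. Of these 30 genes, 15 exceeded 0.47, the value that 613 of the 6127 bright probe sets exceeded. The widest were THBS1 at 1.39, LOX at 1.21, COL1A2 at 1.16, COL8A1 at 1.06, COL5A2 at 1.05 and THBS2 at 1.05. The narrowest were ITGB1 at 0.16, LAMC1 at 0.19, ITGAV at 0.24, COL5A3 at 0.24 and LAMB1 at 0.25.

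**Figure D3:**
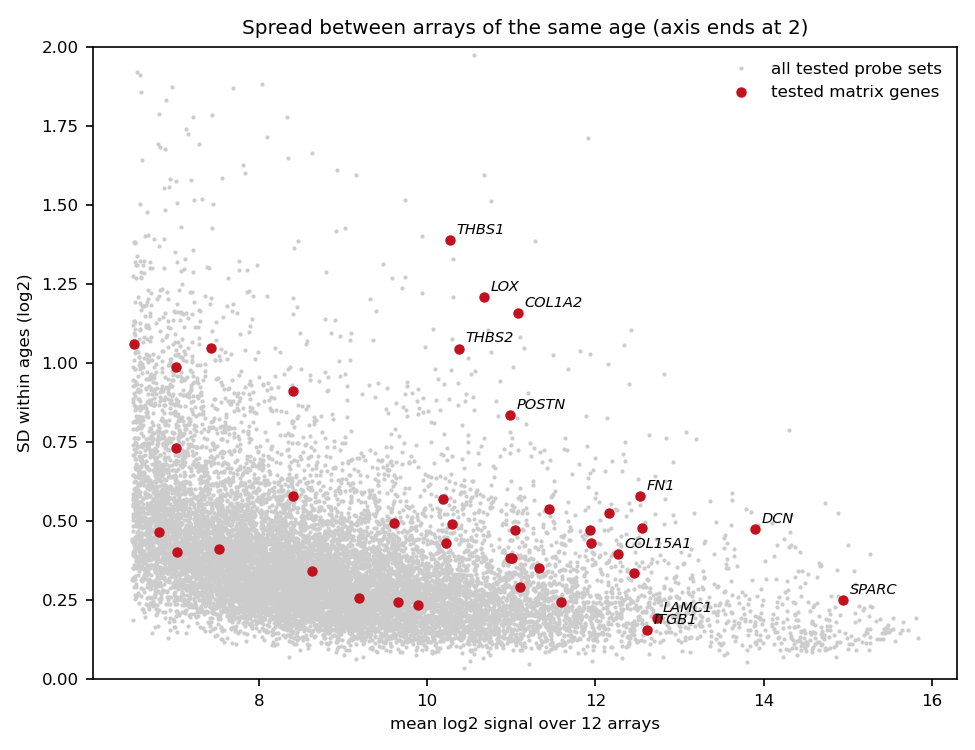
Pooled SD of log2 signal between arrays of the same age (vertical axis, log2 units) against mean log2 signal (horizontal axis) for all 14399 tested probe sets in grey and the 40 matrix genes in red, with 13 grey points beyond the axis end at 2. THBS1, LOX, COL1A2, THBS2 and POSTN lie high for their signal, and ITGB1 and LAMC1 are the lowest of the 40.

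Many of the matrix genes were highest in the same arrays. Within each age, the array with the highest signal was counted for each of the 40 genes. Day 0 replicate 3 was the highest of its age for 20 genes (50%, against 33.6% of all probe sets), day 7 replicate 3 for 26 (65%, against 33.3%), day 14 replicate 1 for 25 (62.5%, against 34.9%) and day 21 replicate 2 for 27 (67.5%, against 33.6%). At day 0, replicate 2 came next with 17 genes and replicate 1 had 3. In all 4 of these arrays at once, 10 genes were highest (25%, against 2.83% of all probe sets): COL1A2, DCN, FN1, LOX, MMP2, POSTN, SERPINH1, SPARC, THBS2 and THBS3. In at least 3 of the 4, 19 genes were highest (47.5%, against 13.6%). The 10 genes include narrow ones such as SPARC, and of the widest genes THBS1 was highest in 2 of the 4 arrays and COL8A1 in 1. These arrays were picked after their values were seen, so the counts are a description and carry no test.

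**Figure D4:**
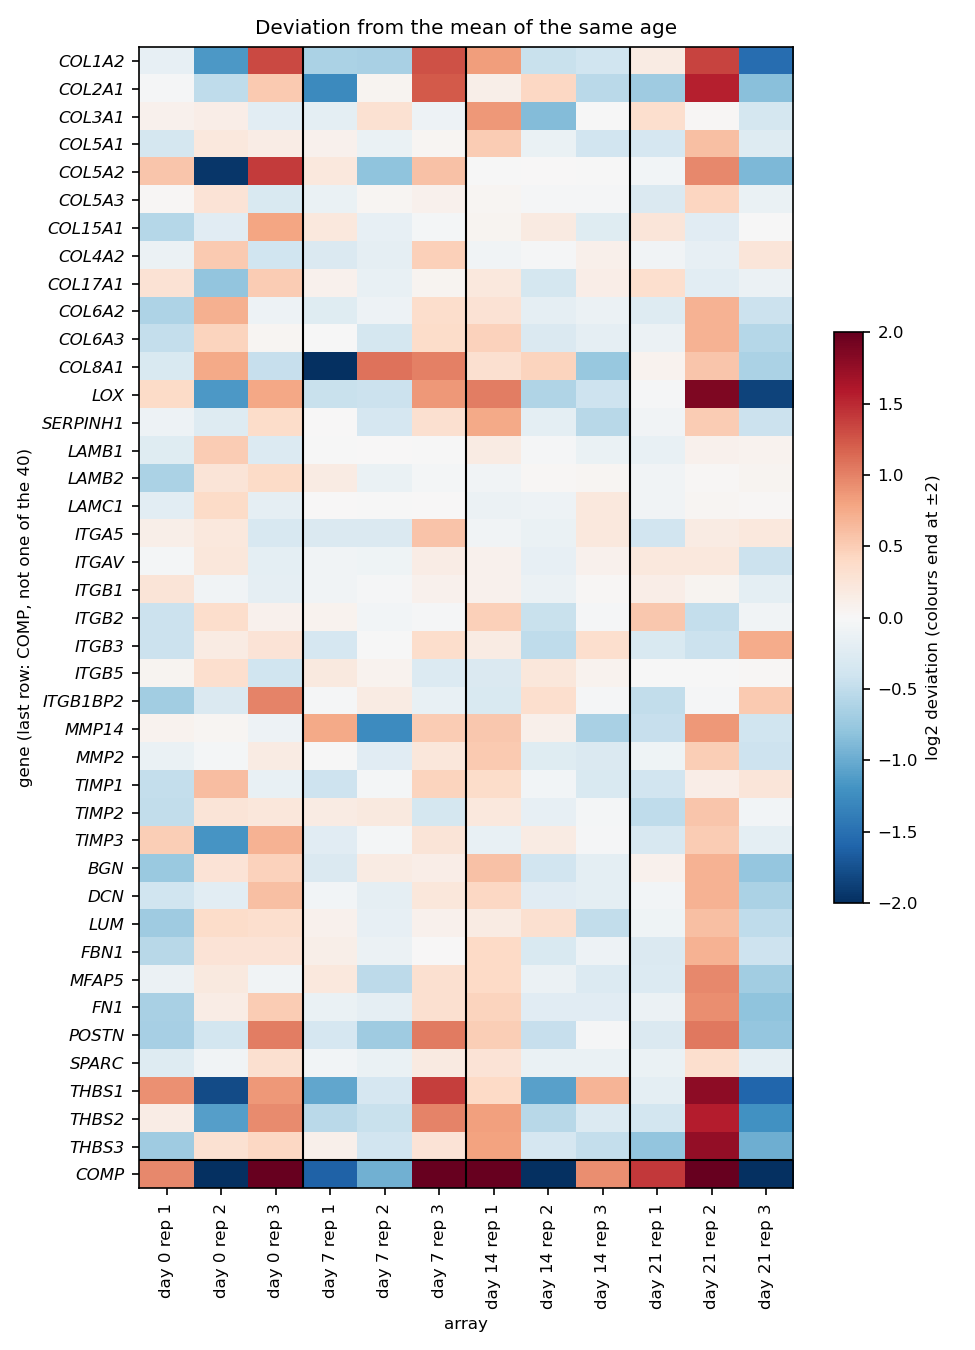
Log2 signal of each tested matrix gene minus the mean of its age, in the 12 arrays (columns, by age and replicate), with genes in rows by role and the colour scale ending at -2 and 2. Day 0 replicate 3, day 7 replicate 3, day 14 replicate 1 and day 21 replicate 2 are red for most interstitial genes, while laminins and ITGB1 stay mostly pale, and the last row shows COMP.

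COMP, a thrombospondin made by tendon and cartilage and no member by symbol, was highest in the same arrays. Its signals were 350, 17.5 and 936 at day 0, 14.5, 23.0 and 268 at day 7, 1123, 6.80 and 231 at day 14, and 304, 552 and 9.0 at day 21. The highest array of each age was day 0 replicate 3, day 7 replicate 3, day 14 replicate 1 and day 21 replicate 2, the 4 arrays named above. Its SD between arrays of the same age, 3.11, was the largest of all 14399 probe sets tested. Of the 7 tendon and cartilage markers, COMP was the 1 tested gene, SOX9 and ACAN were below the limit, and TNMD, SCX, MKX and MATN3 carry no symbol in the table that names the probes. The summed signal of the 3 measured markers ranged from 64.4 to 1245 at day 0, from 50.9 to 350 at day 7, from 83.8 to 1248 at day 14, and from 58.7 to 606 at day 21.

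With the log2 signal of COMP as a covariate, the SD of THBS1 was 0.69, against 1.39 without it. It was 0.66 against 1.21 for LOX, 0.63 against 1.16 for COL1A2, 0.58 against 1.05 for THBS2, and 0.61 against 0.84 for POSTN. Of the other widest genes, COL5A2 had 0.82 against 1.05, while COL8A1 had a larger SD with COMP, 1.13 against 1.06. Over the 40 genes the median SD was 0.44 with COMP and 0.47 without, and it was smaller in 25, while over all probe sets it was smaller in 5702 of 14399. COMP was chosen as a covariate after its values were seen to be highest in the same arrays, so these SDs are a description and carry no test. What the samples that were high in COMP had in common was not tested.

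**Figure D5:**
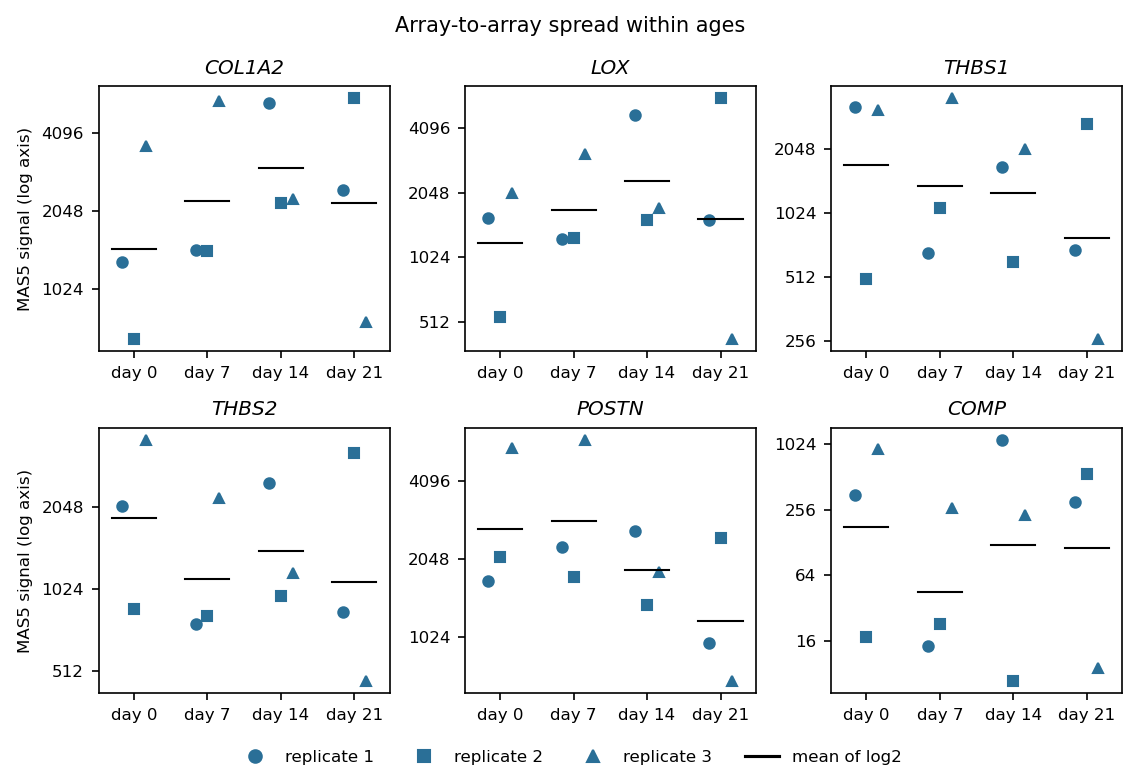
Signals on a log axis of matrix genes with wide spread between arrays of the same age, and of COMP, in the 3 arrays of each age. In each panel, replicate 3 at day 0 and day 7, replicate 1 at day 14 and replicate 2 at day 21 lie at or near the top of their age.

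Genes that work with the matrix but lie outside the symbol rule were counted from lists. Over all tested probe sets, 5.76% rose and 3.64% fell past the threshold at day 7, and 6.61% rose and 4.9% fell at day 21. A count of 1 in lists this short is not read as a result about the list. Of 11 tested genes listed as enzymes that process collagen or as related proteins, 1 rose and 1 fell at both day 7 and day 21. The riser, SPARCL1, is a relative of SPARC and not such an enzyme. It changed by 0.80 ± 0.15 (adjusted p = 0.00821) and 0.64 ± 0.15 (adjusted p = 0.0175). BMP1, which trims procollagen ends, changed by -1.12 ± 0.23 (adjusted p = 0.0109) and -1.18 ± 0.23 (adjusted p = 0.00651). Of 4 tested genes of the basement membrane and dystrophin complex, 2 rose at both times. SGCD, a sarcoglycan of the fibre membrane, changed by 1.62 ± 0.38 (adjusted p = 0.0220) at day 7 and 1.67 ± 0.38 (adjusted p = 0.0149) at day 21, and SNTB1, a syntrophin, by 2.06 ± 0.47 (adjusted p = 0.0190) and 2.44 ± 0.47 (adjusted p = 0.00648). The day 21 calls of BMP1 and SNTB1 held under all 17 alternatives, while their day 7 calls and that of SGCD were lost with the poly-A covariate (adjusted p = 0.167, 0.149 and 0.0942). The mean over its probe sets gave -0.53 for BMP1 at day 7 (adjusted p = 0.199). Without single arrays, calls were lost for SGCD (any of day 7, and replicate 1 or 3 of day 21), SNTB1 at day 7 (day 0 replicate 2, day 7 replicates 1 and 2) and SPARCL1 at day 21 (replicates 1 and 3), with adjusted p from 0.0503 to 0.0792. Scaled on the hybridization controls, SPARCL1 gave 0.49 (adjusted p = 0.0638) at day 7 and 0.26 (adjusted p = 0.273) at day 21.

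Of 8 other matrix proteases, 3 rose at day 7 and 1 at day 21. Among all probe sets, 5.76% rose at day 7, and 6.61% rose and 4.9% fell at day 21. ADAM10, a sheddase, changed by 1.49 ± 0.33 (adjusted p = 0.0178) and 1.30 ± 0.33 (adjusted p = 0.0251). The other risers at day 7 were ADAMTS1, which cuts large proteoglycans, at 0.93 ± 0.25 (adjusted p = 0.0341), and PLAU, the urokinase activator of plasminogen, at 0.93 ± 0.24 (adjusted p = 0.0324). Among 9 adhesion proteins inside the cell, 0 rose, and FLNA, an actin crosslinker, fell at day 21, with -0.88 ± 0.24 (adjusted p = 0.0296). None of 8 TGF-beta signalling genes or of 7 other proteoglycans and elastic fibre proteins passed at either time. Without day 0 replicate 2 the calls of ADAM10 and ADAMTS1 at day 7 and of FLNA at day 21 were lost (adjusted p = 0.0579, 0.107 and 0.0766), and without day 0 replicate 1 that of PLAU (adjusted p = 0.0811). Over all alternatives, the adjusted p reached 0.23 for ADAM10, 0.238 for ADAMTS1, 0.127 for PLAU and 0.117 for FLNA.

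Markers of the cells that make and hold the matrix were counted from lists in the same way. Of 10 endothelial markers, 3 rose and 1 fell at day 7, and 3 rose and 1 fell at day 21. Among all probe sets, 5.76% rose and 3.64% fell at day 7, and 6.61% rose and 4.9% fell at day 21. At day 7 the risers with the lowest F test p were CDH5, a cadherin of vessel walls, at 1.44 ± 0.23 (adjusted p = 0.00356), and PECAM1, an adhesion protein of endothelium, at 0.88 ± 0.16 (adjusted p = 0.00674). The other riser was CLDN5, a tight junction protein, at 1.24 ± 0.26 (adjusted p = 0.0129), and the gene that fell was ENG, endoglin, at -0.72 ± 0.20 (adjusted p = 0.0387). With the poly-A covariate CDH5 gave an adjusted p of 0.0505 and ENG 0.387, ENG was lost without day 0 replicate 1 or 2 or any day 7 array (adjusted p from 0.0585 to 0.123), and CLDN5 was lost without day 7 replicate 2 (0.0526). The summed signal of the 10 markers ranged from 5730 to 6619 at day 0, from 9383 to 10581 at day 7, from 9158 to 9957 at day 14 and from 6863 to 10204 at day 21. Of 4 smooth muscle and pericyte markers, 3 rose at day 7 and 1 at day 21. The gene with the lowest F test p was RGS5, a pericyte gene, at 1.51 ± 0.19 (adjusted p = 0.00111) and 1.56 ± 0.19 (adjusted p = 0.000819). The other risers at day 7, ACTA2 and CNN1, changed by 0.36 ± 0.18 and -0.03 ± 0.39 at day 21. The day 7 call of CNN1 was lost under 4 of 17 alternatives. TAGLN, named here after its values were seen, went the other way. It changed by -0.38 ± 0.29 (adjusted p = 0.445) at day 7 and -0.81 ± 0.29 (adjusted p = 0.0829) at day 21. The sum of the 5 measured markers, with the untested MYLK, ranged from 9402 to 12570.0 at day 0 and from 22695 to 23513 at day 7. It ranged from 16013 to 22699 at day 14 and from 13941 to 17500 at day 21. ACTA2 gave the largest part, with signals from 5275 to 13567. COL15A1 rose over the same interval, and the part of vessel cells in its rise was not tested.

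Fibroblast markers showed no common direction. Of 7 tested, 0 passed at day 7, and at day 21 PDGFRB rose by 0.53 ± 0.16 (adjusted p = 0.0488) and DPT, dermatopontin, changed by -1.66 ± 0.39 (adjusted p = 0.0167). Over all probe sets 9.4% passed at day 7 and 11.5% at day 21. The summed signal of the 9 measured markers, with the untested S100A4 and TCF21, ranged from 21493 to 29952 at day 0 and from 28836 to 36820 at day 7. It ranged from 22843 to 30267 at day 14 and from 20955 to 33055 at day 21, and these sums overlapped. VIM alone, with signals from 13272 to 25411, made up most of them. The PDGFRB call was lost under 12 of 17 alternatives, and that of DPT without day 0 replicate 2 (adjusted p = 0.0557), under the poly-A covariate (0.0777) and without day 21 replicate 3 (0.0724). Of 8 macrophage markers, 1 rose at day 7 and 2 at day 21, with sums from 2254 to 4182 at day 21 and from 1931 to 2635 at day 0. The risers at day 21 were LAPTM5 at 1.55 ± 0.32 (adjusted p = 0.00944) and CTSS at 1.16 ± 0.31 (adjusted p = 0.0297). AIF1, TYROBP and FCER1G were higher without passing. MRC1, CD163 and CD14 were lower without passing, at -1.01 ± 0.32 (adjusted p = 0.0584), -0.93 ± 0.41 (adjusted p = 0.161) and -0.15 ± 0.40 (adjusted p = 0.844). Of 2 adipocyte markers none passed.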

How the data were processed

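Skeletal muscle of pigs was measured on 12 arrays, 3 at each of 4 ages. The deposited table holds, for each array, 1 intensity per probe set on a linear scale. The submitters' processing notes name MAS5, without a version, as the tool that made them. The log2 of these values was used as it stood. Of 24123 probe sets, 124 controls and the lowest 40% of the others by mean log2 signal were left out, and 14399 were tested. For symbols the probe annotation was used, where 10099 probe sets carried 1 symbol, 198 had several and 13826 none, and 2 that paired an ITGB1BP1 symbol with another were left out. The 57 members had 105 probe sets.

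A mean per age was fitted to all 12 arrays in limma 3.58.1 (R 4.3.3), with eBayes and a variance trend. An F test and 5 contrasts between ages were adjusted with Benjamini-Hochberg over all probe sets tested, at 0.05. The labels call the replicates biological and say no more of their source, so the p-values measure the spread between these samples. The number of arrays limits the precision.

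The members and lists were chosen with earlier results of these data known. Values in every array were given for members that passed in any comparison (up to 24) and for a fixed set of 22 genes where measured, the others as counts and ranges, and up to 4 genes per further list in order of F test p. Genes outside this rule were named after their values were seen, among them COL4A2, LAMB2, TIMP2, TIMP3, SERPINH1, MMP14, FBN1, MFAP5 and ITGB1BP2, whose changes are printed. The alternatives were no filter, a filter of 60%, quantile normalization, scaling on 27 hybridization control probe sets, an offset of 29.7 added to the signals, array weights, no variance trend, averaging a gene's probe sets, the replicate number as a block, the poly-A difference over 8 probe set pairs as a covariate, COMP as a covariate, and leaving out each array. The choice of the 8 pairs and of COMP was made after seeing the data. The fit was tested on simulated data. Over all tested probe sets, same-numbered arrays of different ages did not deviate together: 18 correlations lay between -0.20 and 0.11. The labels do not say whether the numbers pair the samples. Correlations over all probe sets, with 3 arrays per age, cannot settle it. Figures were drawn with matplotlib 3.10.9.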

Additional observations from a re-analysis of the deposited data

How the results depend on the processing

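Counts of changed matrix genes are given here under settings that moved them by over 1.5 times. The F test count, 1, was 2 with the stricter filter, 4 on the scale of the hybridization controls, and 1 to 3 with 1 array left out. With the poly-A covariate the F test count stayed 1 and the day 7 count 2, but LAMB1 took the place of COL15A1 in the F test and of COL6A2 at day 7. The count for day 7 against day 0, 2, was 1 with no variance trend, 1 with COMP as a covariate, and 1 to 3 with 1 array left out. The count for day 21 against day 0, 3, was 8 on the scale of the hybridization controls, where 7 of the 8 fell, and 1 with the poly-A covariate. With 1 array left out it ranged from 1 (without day 0 replicate 2 or day 21 replicate 1) to 7 (without day 21 replicate 2), and it was 5 without day 0 replicate 1. The scale of the hybridization controls moved the median of all probe sets by -0.31 at day 7 and -0.36 at day 21, and that of the matrix genes to -0.25 and -0.51. The other 3 comparisons kept a count of 0 under every alternative. With the replicate block the counts were 1, 2 and 3, the same as without it, and 2 of 12 arrays correlated best with their own number.

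No sign turned among the genes that passed, in the comparison where they passed. With the poly-A covariate the sign turned for TIMP1 at day 7 (0.0401) and, at day 21, for COL1A2 (-0.11), LAMB1 (0.25), LAMC1 (0.0568), ITGB1 (-0.0265), DCN (-0.0295) and LOX (-0.37). On the scale of the hybridization controls it turned for COL3A1 (-0.0619), ITGB1 (-0.35), SPARC (-0.19), DCN (-0.26) and LOX (-0.0195). Quantile normalization turned ITGB1 (-0.0358), SPARC (-0.0179) and DCN (-0.0275), and the mean of the probe sets turned LAMB1 (0.0472) and LAMC1 (0.0424). With 1 array left out, the day 21 change ranged from -0.0873 to 1.35 for COL1A2, -0.24 to 0.16 for LAMB1, -0.26 to 0.042 for LAMC1, -0.054 to 0.16 for ITGB1, -0.78 to 0.0868 for FN1, -0.23 to 0.43 for DCN, -0.57 to 1.29 for LOX and -0.44 to 0.0154 for MMP2. The cause of these turns was not tested, and none of these genes passed before or after in the comparison whose sign turned. Signals near the limit of 90.3, as for ITGB3, or below it, as for COMP and ADAM10 on some arrays, are imprecise.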
